A study of Homo sapiens with 6 samples.

Results

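The genes followed here are 10 neighbours on the short arm of human chromosome 9, in the band 9p21 and just beyond it: MLLT3, IFNB1, IFNA21, KLHL9, IFNA2, IFNA8, IFNA1, MTAP, CDKN2A and CDKN2B, in their RefSeq order from the telomere side to the centromere side. Their probe sets, the members, were found as every probe set of the array whose platform annotation lists 1 of these symbols alone, and all 10 genes of the 11963 measured were represented, by 18 of 22215 probe sets. They were chosen with the differences between the lines already known, so their values below are a description and carry no p-value. Another probe set lists 2 genes, an interferon gene of the list among them, and was not counted.

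Transcript levels came from U87MG and T98G, both established human glioblastoma cell lines, with 3 Affymetrix arrays per line. Both were cultured in the same serum-containing medium, and the labels name no treatment and no genetic change made to either line. U87MG is described as refractory to the apoptosis that bortezomib (a proteasome inhibitor) and G5 (an isopeptidase inhibitor) bring about, but prone to necrosis under G5, and T98G as undergoing apoptosis with either compound and resisting that necrosis to some degree. Each line is a single long-passaged culture model, and nothing says whether its arrays came from separate cultures, so the spread given may be technical.

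CDKN2A encodes p16, an inhibitor of the cyclin D kinases CDK4 and CDK6 that holds the retinoblastoma protein active, and, from another first exon, the ARF protein, which restrains MDM2 and so stabilises p53. CDKN2B encodes p15, a related kinase inhibitor. The segment around these genes is among those most often deleted in human glioblastoma, and MTAP, which lies beside them and recycles methylthioadenosine from polyamine synthesis into methionine, is often lost with them. Between MTAP and MLLT3 lies the cluster of type I interferon genes, which most cells keep silent until they sense a virus, with the CUL3 ubiquitin ligase adaptor gene KLHL9 in its midst. MLLT3 encodes a reader of acetylated and crotonylated histones that joins the super elongation complex and the DOT1L methyltransferase. DNA copies of the region were not analysed here.

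The start sites of the genes that the results turn on are shown because the lines differed at KLHL9, MTAP and the neighbouring gene FOCAD, while both starts of CDKN2A and the interferon gene IFNB1 belonged to genes at low signal in both lines. The sequences are RefSeq windows of assembly GRCh38.p14, on the strand of the gene, from 250 bases before the annotated start to 50 bases after it. Capitals mark the GC box letters GGGCGG and the TATA box letters TATAAA on either strand, motifs that share no overlap in these windows. The GC box letters occur in 45.0% and the TATA box letters in 11.5% of the 35116 windows of that table.
FOCAD, chr9:20684009-20684308 (+ strand): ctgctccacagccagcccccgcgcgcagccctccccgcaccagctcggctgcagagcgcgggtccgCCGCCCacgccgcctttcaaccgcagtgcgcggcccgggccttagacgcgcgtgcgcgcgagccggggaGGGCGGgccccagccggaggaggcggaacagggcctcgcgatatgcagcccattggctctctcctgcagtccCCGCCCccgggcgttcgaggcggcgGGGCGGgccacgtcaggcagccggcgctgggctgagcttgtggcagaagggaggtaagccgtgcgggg
IFNB1, chr9:21077893-21078192 (- strand): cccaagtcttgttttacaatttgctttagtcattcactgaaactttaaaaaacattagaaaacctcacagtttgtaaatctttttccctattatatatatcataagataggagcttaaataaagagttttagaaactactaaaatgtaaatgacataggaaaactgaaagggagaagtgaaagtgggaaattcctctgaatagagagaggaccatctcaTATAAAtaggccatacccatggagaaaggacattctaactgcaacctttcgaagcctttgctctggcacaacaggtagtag
KLHL9, chr9:21335355-21335654 (- strand): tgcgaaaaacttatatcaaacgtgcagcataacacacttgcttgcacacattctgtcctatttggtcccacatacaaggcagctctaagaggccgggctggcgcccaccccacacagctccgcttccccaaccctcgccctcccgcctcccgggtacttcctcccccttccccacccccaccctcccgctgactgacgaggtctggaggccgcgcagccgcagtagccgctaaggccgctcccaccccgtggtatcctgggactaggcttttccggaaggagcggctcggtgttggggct
MTAP, chr9:21802386-21802685 (+ strand): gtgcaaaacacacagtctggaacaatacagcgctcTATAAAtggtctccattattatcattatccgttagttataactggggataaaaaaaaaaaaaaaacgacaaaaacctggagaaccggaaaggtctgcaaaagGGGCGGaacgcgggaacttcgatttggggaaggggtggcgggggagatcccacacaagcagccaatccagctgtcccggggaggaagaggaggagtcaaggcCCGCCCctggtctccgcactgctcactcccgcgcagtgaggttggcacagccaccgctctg
CDKN2A, downstream start (p16), chr9:21974808-21975107 (- strand): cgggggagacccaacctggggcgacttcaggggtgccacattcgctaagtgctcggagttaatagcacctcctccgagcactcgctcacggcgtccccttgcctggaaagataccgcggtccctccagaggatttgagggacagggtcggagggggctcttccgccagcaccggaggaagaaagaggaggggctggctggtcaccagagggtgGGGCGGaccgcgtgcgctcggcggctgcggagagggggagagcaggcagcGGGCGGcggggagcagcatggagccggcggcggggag
CDKN2A, upstream start (ARF), chr9:21995275-21995574 (- strand): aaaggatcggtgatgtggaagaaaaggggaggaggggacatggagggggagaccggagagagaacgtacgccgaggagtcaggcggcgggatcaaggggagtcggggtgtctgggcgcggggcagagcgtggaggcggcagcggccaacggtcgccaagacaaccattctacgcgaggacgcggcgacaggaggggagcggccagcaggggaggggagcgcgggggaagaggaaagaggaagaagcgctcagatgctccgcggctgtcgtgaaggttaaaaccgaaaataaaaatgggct

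GC boxes were found 4 times at FOCAD, 2 times at MTAP and 2 times at the p16 start, and in none of the windows of KLHL9, IFNB1 and the ARF start. TATA box letters stood in the windows of IFNB1 and MTAP, once each. The CG dinucleotide occurred 39 times at FOCAD, 19 times at KLHL9, 15 times at MTAP, and 26 and 28 times at the p16 and ARF starts, against 1 time at IFNB1. Windows of all genes had a median of 14 such dinucleotides. The windows of the interferon genes IFNA21, IFNA2, IFNA8 and IFNA1 held 1 or 2 each, and those of MLLT3 and CDKN2B held 24 and 25. These letters describe the reference genome and say nothing of the DNA in either line.

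The deposited values were log2 intensities summarised per probe set, and levels below are on that scale. The table holds no detection calls, so levels were set against the low-signal range of each array, taken from 70 probe sets of 50 genes that belong to other tissues (such as INS, ALB and PRM1). Their 95th percentile lay at 7.76 to 8.04 on the 6 arrays, their 75th at 6.32 to 6.54 and their median at 5.08 to 5.40. The 3 probe sets of a bacterial control gene for which no transcript is expected read at most 3.94 to 4.03 per array. A probe set was counted above the low-signal range in a line where all 3 arrays exceeded the 95th percentile. The limit lay above the array medians of 7.56 to 7.65, and 43.5% of all probe sets passed it in U87MG and 44.7% in T98G. Its top is set by probe sets of PRB1, SFTPC and CYP3A4 that match several sequences, so it is a strict limit. Probe sets differ in their background, and a level of a probe set was set only against the same probe set in the other line and against this range. A fold is written as "at least" where the dimmer line was above the limit on no array, since its signal may be background. The dimmer value was then taken as no lower than the bacterial control limit of its array. The wording concerns background alone. Such a fold comes from the line means, and sampling error can place it lower. Pearson r over all probe sets was 0.991 to 0.997 within a line and 0.934 to 0.938 between the lines. The 24 probe sets of the poly-A spike controls averaged 5.30 on U87MG replicate 3 and between 6.10 and 6.84 elsewhere. Of 10 glial and neural progenitor markers, VIM, CD44 and SOX9 were above the low-signal range in both lines and NES in U87MG, whereas GFAP, S100B, SOX2, OLIG2, AQP4 and ALDH1L1 were in neither. Of 12 markers of epithelial, blood, endothelial and liver cells, only KRT18 was above it, in T98G (6.51 to 6.67 in U87MG, 12.01 to 12.12 in T98G), and its part in the results was not tested. The liver marker, ALB, also belongs to the genes that set this range, so its place within it carries no weight.

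No member probe set was above the low-signal range in U87MG (0 of 18), and 1 of 18 was in T98G, a KLHL9 probe set. Against the lower limit of the 75th percentile, 1 probe set was above in U87MG and 6 were in T98G, where 62.8% and 64.0% of all probe sets were above in those lines. The 6 comprised both of KLHL9, 3 of MTAP and 1 of CDKN2A, and the CDKN2A probe set was the 1 above it in U87MG. Against the bacterial control limit alone, 13 were above in U87MG and 15 in T98G, beside 92.9% and 93.6% of all probe sets. The counts at the 95th percentile rested in part on T98G replicate 3, without which 3 probe sets were above it in T98G.

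**Figure D1:**
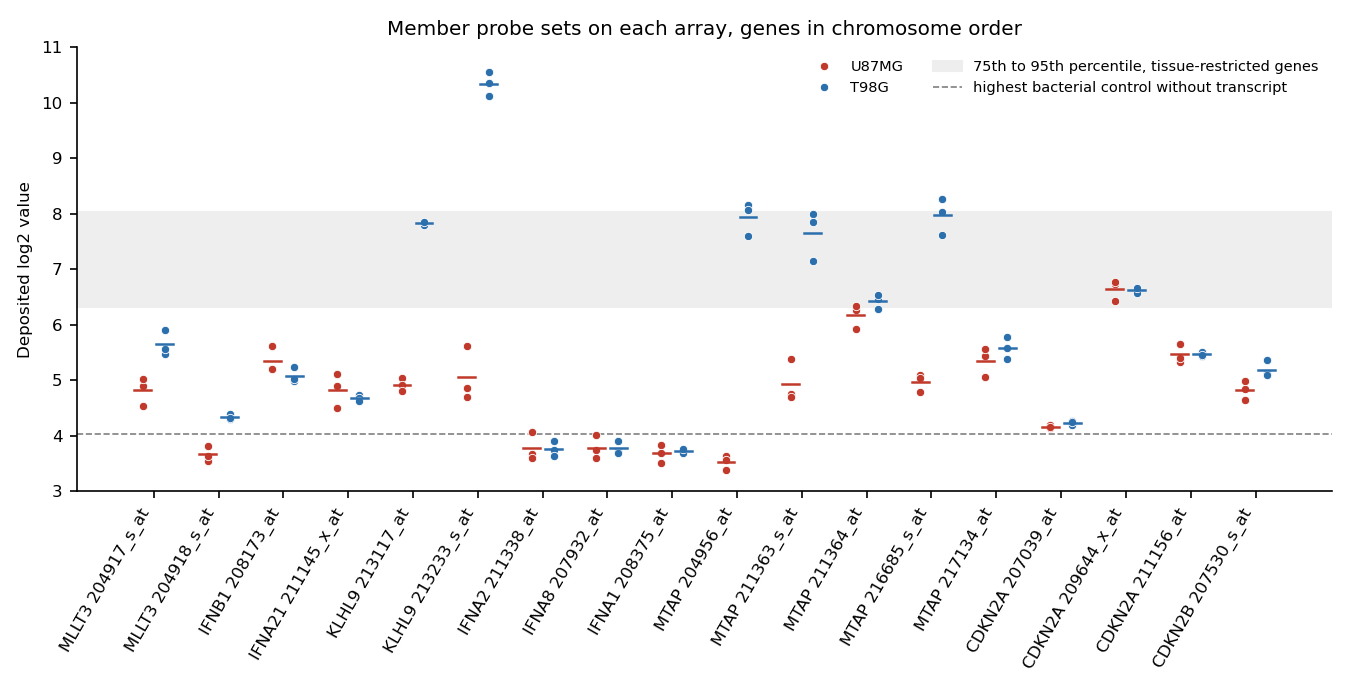
The vertical axis gives the deposited log2 value of each of the 18 probe sets, with genes in chromosome order along the horizontal axis. Points are the 3 arrays of U87MG (red, left) and of T98G (blue, right), short lines are means, the grey band runs from the 75th to the 95th percentile of tissue-restricted genes and the dashed line is the highest bacterial control value. Both KLHL9 probe sets and 3 of the 5 MTAP probe sets differ by more than 2 log2 units between the line means, and the others lie low in both.

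KLHL9 was lower in U87MG on both of its probe sets. The KLHL9 protein is an adaptor that brings substrates to the CUL3 ubiquitin ligase, with Aurora B at mitosis among them. Its probe set 213233_s_at had levels of 4.70, 5.61 and 4.86 on the U87MG arrays and 10.35, 10.11 and 10.54 on the T98G arrays. All 3 U87MG arrays lay more than 4 log2 units under the lowest T98G array, and U87MG replicate 2 was the highest of its line. The mean was 5.06 ± 0.49 in U87MG and 10.34 ± 0.22 in T98G (SD, n = 3 arrays each), a log2 difference of the measured values of -5.28 (SE 0.23, 95% interval -5.80 to -4.76). The U87MG arrays were within the low-signal range, so KLHL9 was at least 38.8-fold lower in U87MG on this probe set. The array cannot tell fewer cells with the transcript from less transcript per cell.

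The other KLHL9 probe set, 213117_at, read 5.04, 4.91 and 4.81 in U87MG and 7.84, 7.80 and 7.84 in T98G. The lines did not overlap here either, and the 3 T98G arrays differed among themselves by less than 0.05. Means were 4.92 ± 0.11 in U87MG and 7.83 ± 0.03 in T98G, a log2 difference of -2.91 (SE 0.10), or at least 7.51-fold lower in U87MG. In T98G 1 of 3 arrays passed the 95th percentile of tissue-restricted genes and all 3 the 75th, and in U87MG none passed either. The probe set with the wider difference carries the suffix of sets that match several transcripts.

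MTAP was lower in U87MG on 3 of its 5 probe sets, and the lines overlapped on the other 2. MTAP is the enzyme methylthioadenosine phosphorylase. Its probe set 204956_at had 3.64, 3.38 and 3.57 in U87MG and 8.16, 8.06 and 7.60 in T98G. The U87MG values were all under the highest bacterial control value of their arrays. Means were 3.53 ± 0.13 in U87MG and 7.94 ± 0.30 in T98G, with a log2 difference of -4.41 (SE 0.16). With U87MG set to the bacterial control limit, MTAP was at least 15.2-fold lower in U87MG, where 2 of 3 T98G arrays passed the 95th percentile of tissue-restricted genes.

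Probe set 216685_s_at of MTAP read 5.09, 4.79 and 5.03 in U87MG and 8.26, 8.03 and 7.61 in T98G, at least 7.99-fold lower in U87MG (SE 0.17 on the log2 scale). Probe set 211363_s_at read 4.74, 5.38 and 4.69 in U87MG and 7.99, 7.84 and 7.14 in T98G, a log2 difference of -2.72 (SE 0.25), or at least 6.58-fold lower. Of the 3 T98G arrays, 2 passed the 95th percentile of tissue-restricted genes on the first of these and 1 on the other, against 0 U87MG arrays. On all 3 of these MTAP probe sets the lines were separate, and T98G replicate 3 was the lowest T98G array each time. That array was the highest T98G array for KLHL9 213233_s_at.

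The remaining MTAP probe sets did not separate the lines. Probe set 211364_at had 5.92, 6.27 and 6.33 in U87MG and 6.46, 6.29 and 6.53 in T98G (log2 -0.25, 95% interval -0.56 to 0.05). Probe set 217134_at had 5.06, 5.44 and 5.56 in U87MG and 5.57, 5.39 and 5.78 in T98G (log2 -0.23, 95% interval -0.58 to 0.13). Both stayed under the 95th percentile of tissue-restricted genes on every array. Each was designed from the same transcript record as a probe set that differed, 211364_at with 211363_s_at and 217134_at with 216685_s_at.

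CDKN2A and CDKN2B were within the low-signal range in both lines, so their differences do not compare 2 measured transcript levels. The CDKN2A probe set 207039_at read 4.13, 4.19 and 4.16 in U87MG and 4.27, 4.20 and 4.24 in T98G. Its lines were separate by less than 0.01, and the log2 difference was -0.07 (95% interval -0.28 to 0.13). Probe set 211156_at had 5.32, 5.41 and 5.66 in U87MG and 5.44, 5.50 and 5.46 in T98G, a log2 difference of -0.004 (95% interval -0.26 to 0.25). These lines overlapped. Probe set 209644_x_at, which carries the suffix of sets that match several sequences, had 6.43, 6.72 and 6.77 in U87MG and 6.63, 6.57 and 6.66 in T98G (log2 0.02, 95% interval -0.24 to 0.29). It exceeded the 75th percentile of tissue-restricted genes on all 6 arrays and the 95th on none. The p16 and ARF transcripts share their later exons, and probe sequences that could tell them apart were not used here.

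CDKN2B, the p15 gene, had a single probe set with 4.63, 4.85 and 4.99 in U87MG and 5.12, 5.09 and 5.36 in T98G. All T98G arrays were above all U87MG arrays, and every array of both lines was under the 75th percentile of tissue-restricted genes. The log2 difference was -0.37 (SE 0.13, 95% interval -0.66 to -0.08).

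MLLT3 read lower in U87MG on both probe sets, at low signal in both lines, so these differences set no size for a change in its transcript. Probe set 204917_s_at had 4.53, 4.90 and 5.02 in U87MG and 5.48, 5.57 and 5.91 in T98G (log2 -0.84, SE 0.16). Probe set 204918_s_at had 3.54, 3.82 and 3.63 in U87MG and 4.30, 4.38 and 4.32 in T98G (log2 -0.67, SE 0.11). Neither probe set overlapped between the lines, and both were under the 75th percentile of tissue-restricted genes on every array. The U87MG values of 204918_s_at were under the bacterial control limit.

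The 5 interferon members were at low signal in both lines. These genes encode secreted antiviral proteins that all bind the receptor made of IFNAR1 and IFNAR2. Their single probe sets read 3.51 to 5.62 in U87MG and 3.64 to 5.24 in T98G, with log2 differences of -0.04 to 0.26 and overlapping lines throughout. IFNB1, the interferon beta gene, read 5.21, 5.21 and 5.62 in U87MG and 5.24, 4.98 and 5.03 in T98G (log2 0.26, 95% interval -0.06 to 0.58). IFNA1 read 3.84, 3.51 and 3.69 in U87MG and 3.72, 3.69 and 3.76 in T98G, under the bacterial control limit on all arrays. IFNA8 (log2 0.01) was likewise under it on all arrays and IFNA2 (log2 0.02) on all but 1 array of U87MG. IFNA21, on a probe set with the suffix of multiple matches, had 4.49, 4.90 and 5.10 in U87MG and 4.74, 4.68 and 4.63 in T98G. Interferon alpha genes are close in sequence, and a probe set of a given gene can detect its relatives.

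Limma, fitted to all 22215 probe sets with Benjamini-Hochberg adjustment, put 5 of the 18 member probe sets past the limits used here for a call (2-fold or more, adjusted p below 0.05), 2 of KLHL9 and 3 of MTAP, all 5 lower in U87MG and 0 higher. Of all probe sets 12.3% were called either way, 6.33% lower and 5.93% higher, and because the members were chosen on this contrast nothing is read from their count. By measured difference, the called member nearest to the 2-fold limit was MTAP 211363_s_at at log2 -2.72, and the nearest outside it was MLLT3 204917_s_at at -0.84. The lines did not overlap for 9 of the 18 member probe sets, against 49.1% of all probe sets. The median log2 difference was -0.24 over the members and -0.01 over all probe sets. A filter on dim probe sets, at the median of probe set means, kept 5 of the 18, and they passed through T98G.

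**Figure D2:**
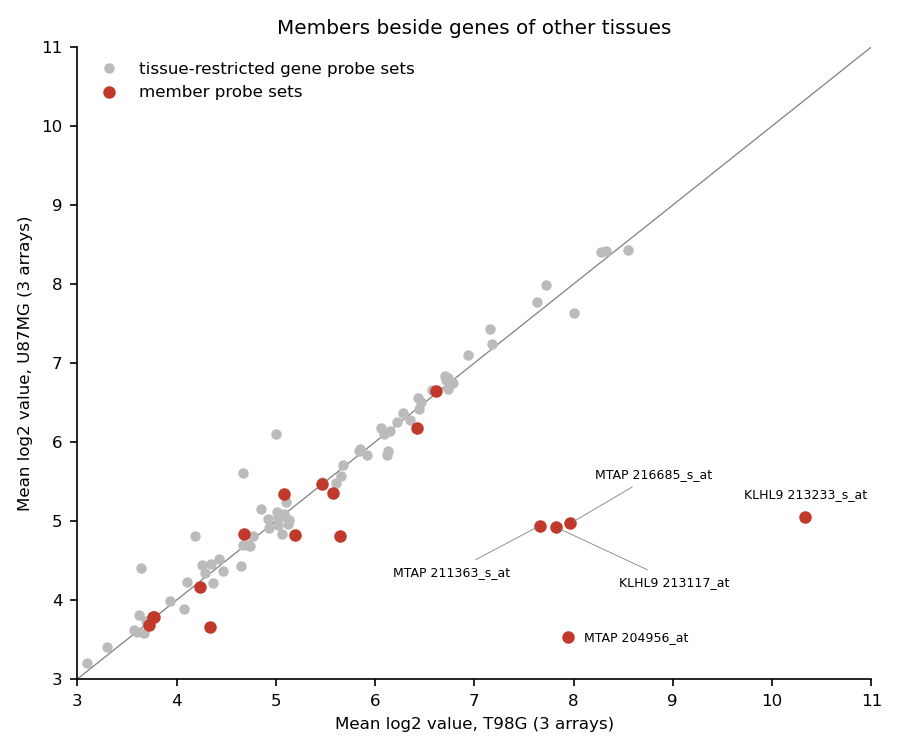
Mean log2 value over 3 arrays in U87MG (vertical axis) against T98G (horizontal axis) for the 18 member probe sets (red) and the 70 probe sets of tissue-restricted genes (grey), with the line of equality. The 5 labelled probe sets of KLHL9 and MTAP lie far below the line, and the other 13 members lie on or close to it, at log2 differences of -0.84 to 0.26.

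Among tissue-restricted genes the probe sets differed between the lines by little. Their median log2 difference was 0.05, the 95th percentile of its size was 0.51 and the widest was 1.10, for CYP2E1, a liver enzyme gene. That CYP2E1 probe set was the 1 of the 70 that was called. The difference of MLLT3 on both probe sets was wider than that 95th percentile, and those of CDKN2A, CDKN2B and the interferon members were narrower. The comparison is a description and no test, since the members were chosen with this contrast known.

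The genes lying between the members and beside them were taken in RefSeq order to ask how far along the chromosome the differences ran. These 40 neighbours are no members, and they were tested in a limma fit over 11963 genes, each on its brightest probe set, with Benjamini-Hochberg adjustment. Of the 40, 1 was higher and 2 were lower in U87MG, where 6.56% of all genes were called higher and 7.01% lower.

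FOCAD was the single called gene of the 10 non-members between MLLT3 and CDKN2B. It lies next to MLLT3 and encodes focadhesin, a focal adhesion protein that also binds the SKI complex of RNA decay. Its probe set read 4.72, 4.99 and 5.19 in U87MG and 8.20, 8.18 and 8.20 in T98G. The T98G arrays were all above the low-signal range and the U87MG arrays all within it. FOCAD was at least 9.36-fold lower in U87MG (4.97 ± 0.24 against 8.19 ± 0.01, log2 -3.23, SE 0.13, limma adjusted p = 5.45e-08).

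The other 9 genes between the members, IFNW1, IFNA4, IFNA7, IFNA10, IFNA16, IFNA17, IFNA14, IFNA5 and CDKN2A-AS1, were above the low-signal range in neither line. None of these 9 was called by limma, and 1, IFNA4, had an unadjusted p under 0.05, at log2 0.29. The 8 interferon genes among them read 3.62 to 6.33 in U87MG and 3.28 to 6.07 in T98G. CDKN2A-AS1, annotated as antisense to CDKN2A, had 5.41, 5.58 and 5.64 in U87MG and 5.55, 5.52 and 5.58 in T98G (log2 -0.01). Genes at this signal cannot show whether the lines differed there. FOCAD, both KLHL9 probe sets and 3 of MTAP were above the 75th percentile of tissue-restricted genes on all 3 T98G arrays and on 0 of the 3 U87MG arrays.

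**Figure D3:**
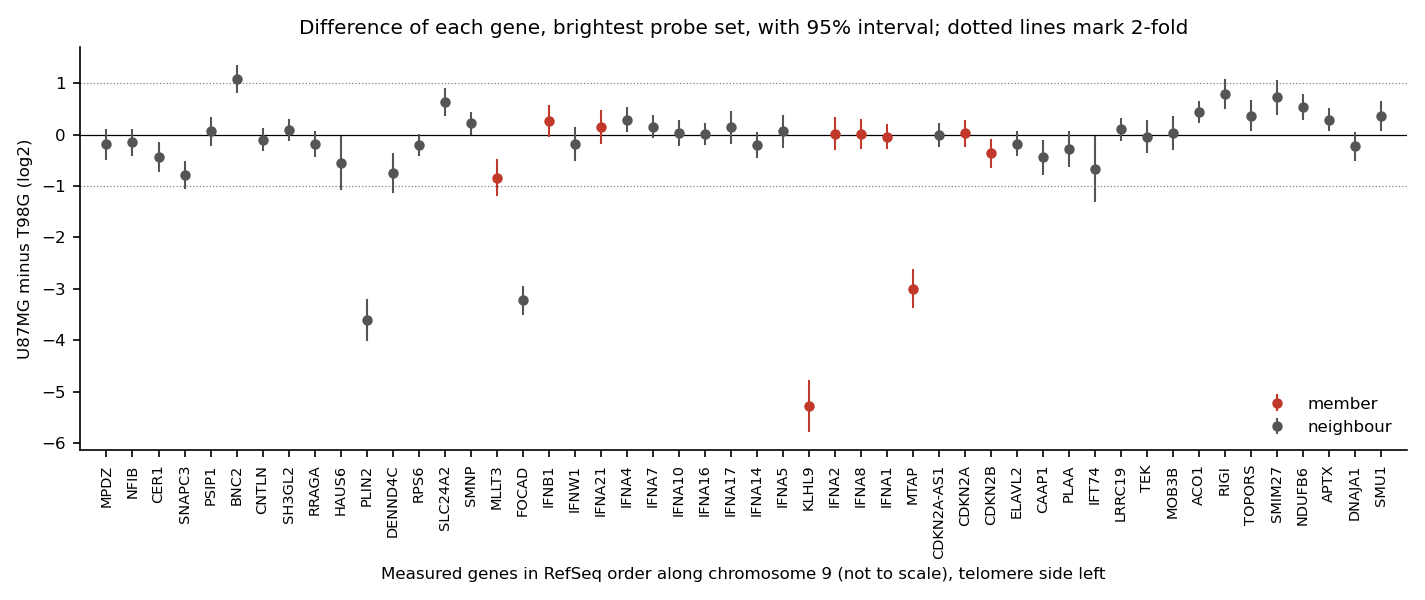
Log2 difference of U87MG minus T98G (vertical axis, 95% interval from the limma fit) for the 10 members (red) and 40 neighbours (grey) on the brightest probe set of each gene, in RefSeq order along chromosome 9. FOCAD, KLHL9 and MTAP stand at the bottom, with KLHL9 at -5.28 and FOCAD at -3.23, PLIN2 stands apart on the telomere side at -3.61, and the interferon genes and CDKN2A lie near 0.

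Outside the members, the nearest measured genes were not called. On the telomere side SMNP, annotated as a pseudogene, had a log2 difference of 0.22 (limma adjusted p = 0.113). SLC24A2, a sodium, calcium and potassium exchanger gene, had 0.63 (adjusted p = 0.00228), short of 2-fold, with U87MG arrays at 5.29 to 5.63 and T98G arrays at 4.72 to 4.98. Both genes were under the 75th percentile of tissue-restricted genes on every array and cannot show where the differences ended. The nearest gene on the telomere side above the low-signal range in both lines was RPS6, given below. On the centromere side ELAVL2, a neuronal RNA-binding protein gene, had -0.17 (adjusted p = 0.26) and was at low signal in both lines. CAAP1, an inhibitor of caspase activation, was the nearest gene on that side above the low-signal range. It read 9.46, 9.27 and 8.85 in U87MG and 9.71, 9.59 and 9.61 in T98G (log2 -0.44, adjusted p = 0.0416), also short of 2-fold.

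Farther out on the telomere side PLIN2, the lipid droplet coat protein perilipin 2, read 4.69, 5.20 and 5.46 in U87MG and 8.86, 8.75 and 8.57 in T98G. With U87MG arrays within the low-signal range, it was at least 12.2-fold lower in U87MG (limma adjusted p = 2.66e-07) on its brightest probe set, and its other probe set had log2 -0.35. RPS6, a ribosomal protein gene that lies between PLIN2 and MLLT3, had 14.01 ± 0.05 in U87MG and 14.21 ± 0.08 in T98G (log2 -0.20, adjusted p = 0.128). DENND4C, in the same interval, had -0.75 (adjusted p = 0.00657). BNC2, a zinc finger gene, averaged 7.87 ± 0.16 in U87MG and 6.78 ± 0.12 in T98G, at least 2.12-fold higher in U87MG (adjusted p = 5.71e-05), with 1 of 3 U87MG arrays and 0 T98G arrays above the low-signal range, and at log2 0.99 it was short of 2-fold without U87MG replicate 2. Of the 15 genes on the centromere side limma called 0, with 9 at an unadjusted and 8 at an adjusted p under 0.05. Of these 8, 7 were higher in U87MG. Of the 15 on the telomere side, 7 had an unadjusted and 6 an adjusted p under 0.05 by limma, 4 of the 6 lower in U87MG. Over all genes 47.8% had an unadjusted and 41.3% an adjusted p under 0.05. The 13 flanking genes above the low-signal range in both lines had log2 differences of -0.44 to 0.72, a selection that leaves out genes low in either line. In T98G alone PLIN2 (-3.61), SNAPC3 (-0.79), DENND4C (-0.75) and HAUS6 (-0.56) were above it, and in U87MG alone none was. Of these, only PLIN2 was called.

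The genes most like KLHL9 213233_s_at across the 6 arrays were EGLN3, an oxygen sensor (Pearson r = 0.9997), ABCC1, a drug efflux transporter (r = 0.999), and ZNF106 (r = 0.999), which lie on chromosomes 14, 16 and 15. The 6 arrays form 2 groups of 3 around the line means, so these coefficients mostly restate a lower level in U87MG and serve as a description.

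Partners of the members in their pathways were counted in the same fit over all genes, from lists drawn up by role. The lists were chosen with earlier results of these data known, so their counts and p-values serve as a description. Over all genes limma called 6.56% higher and 7.01% lower in U87MG, the shares beside which the counts of each list stand. In the pathway downstream of p16 and p15, 3 of 22 measured genes were higher in U87MG, 2 were lower and 17 were not called. CCND1, cyclin D1, the partner of CDK4 and CDK6, read 12.40, 12.84 and 12.80 in U87MG and 10.91, 10.91 and 10.53 in T98G, and was 3.72-fold higher in U87MG (limma adjusted p = 8.08e-06). CDK6 read 6.74, 7.03 and 6.98 in U87MG and 8.35, 8.46 and 7.70 in T98G, and was at least 2.39-fold lower (adjusted p = 0.000486), with 0 U87MG arrays and 2 of 3 T98G arrays above the low-signal range. CDK4 had 12.93 ± 0.08 in U87MG and 12.73 ± 0.10 in T98G (log2 0.21, 95% interval -0.03 to 0.43), and RB1, the retinoblastoma gene, 9.55 ± 0.21 and 9.78 ± 0.02 in those lines (log2 -0.23, 95% interval -0.51 to 0.04), neither of them called.

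Other kinase inhibitor genes outside 9p21 moved in both directions. CDKN1A, which encodes p21 and belongs to the p53 list as well, was 5.69-fold higher in U87MG (12.26 ± 0.12 against 9.75 ± 0.23). CDKN2D, the p19 relative of p16, read 8.41, 8.47 and 8.56 in U87MG and 6.37, 6.74 and 6.48 in T98G, and was at least 3.87-fold higher (limma adjusted p = 1.02e-06). The other CDKN2D probe set had log2 0.31, and without multiply matching probe sets the call was lost (adjusted p = 0.0723). CDKN1C, which encodes p57, was at least 3.36-fold lower (5.86 ± 0.38 against 7.61 ± 0.41, adjusted p = 0.000209), called on 3 of its 5 probe sets. It passed the 95th percentile of tissue-restricted genes on 0 U87MG arrays and 1 T98G array, and it dropped out when dim probe sets were removed.

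Downstream of ARF, 4 of 18 genes of the MDM2 and p53 pathway were higher in U87MG, 0 were lower and 14 were not called. Of the 18, 10 had an adjusted and 12 an unadjusted p under 0.05, beside 41.3% and 47.8% of all genes. Besides CDKN1A, ZMAT3, an RNA-binding product of p53 signalling, was 2.95-fold higher (10.21 ± 0.19 against 8.65 ± 0.05, limma adjusted p = 4.78e-06), and PHLDA3, an AKT inhibitor induced by p53, was 2.31-fold higher (9.49 ± 0.20 against 8.28 ± 0.22). MDM2, the ligase that ARF binds, read 7.03, 7.25 and 6.80 in U87MG and 6.30, 6.43 and 6.44 in T98G (log2 0.64, adjusted p = 0.00275), short of 2-fold and under the 95th percentile of tissue-restricted genes in both lines. The median log2 difference was 0.39 over this list and 0.13 over the list downstream of p16 and p15. It was -0.06 around MTAP, 0.09 for the CUL3 ligase, -0.04 for interferon signalling and 0.05 around MLLT3, with 0.03 over all 117 list genes and -0.01 over all genes.

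Around MTAP, genes of methionine salvage, polyamine synthesis and the PRMT5 complex numbered 0 higher, 2 lower and 24 not called of 26 by limma. Of the 26, 12 had an unadjusted p below 0.05, where 47.8% of all genes did. CLNS1A, a substrate adaptor of the arginine methyltransferase PRMT5, read 10.78, 10.60 and 10.34 in U87MG and 11.85, 11.88 and 11.77 in T98G, and was 2.40-fold lower (limma adjusted p = 2.96e-05). SMOX, spermine oxidase, was 2.51-fold lower where its signal was brightest, while its other probe set had log2 -0.28 and the mean of both had -0.81, short of 2-fold. PRMT5, which methylthioadenosine inhibits, had 10.85 ± 0.05 in U87MG and 10.99 ± 0.09 in T98G (log2 -0.13, 95% interval -0.35 to 0.09). MAT2A, which makes S-adenosylmethionine, had 12.26 ± 0.03 in U87MG and 12.36 ± 0.05 in T98G (log2 -0.10, 95% interval -0.31 to 0.11).

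Of 12 partners of KLHL9 in the CUL3 ligase, 1 was higher in U87MG and 0 were lower by limma. An unadjusted p below 0.05 was found for 6 of the 12 and for 47.8% of all genes. KLHL21, another adaptor that acts on Aurora B, read 10.89, 11.31 and 10.98 in U87MG and 9.33, 9.45 and 9.43 in T98G, and was 3.15-fold higher (limma adjusted p = 5.38e-06). CUL3 itself had 11.83 ± 0.25 in U87MG and 12.16 ± 0.04 in T98G (log2 -0.33, adjusted p = 0.0725), with its 3 probe sets at -0.33 to 0.66.

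Genes that receive or trigger type I interferon numbered 0 higher, 5 lower and 17 not called of 22 by limma. Of the 22, 12 had an unadjusted p below 0.05, where 47.8% of all genes did. The receptor genes IFNAR1 (6.90 ± 0.16 in U87MG, 7.14 ± 0.27 in T98G) and IFNAR2 (9.35 ± 0.34 in U87MG, 9.54 ± 0.14 in T98G) were not called, at log2 -0.25 (95% interval -0.58 to 0.09) and -0.20 (-0.57 to 0.18). IFNAR1 was under the 95th percentile of tissue-restricted genes on every array, and the other IFNAR2 probe set had log2 -0.69. IFIH1, the RNA sensor MDA5, read 5.84, 4.97 and 4.99 in U87MG and 8.33, 7.29 and 8.10 in T98G, and was at least 6.24-fold lower (limma adjusted p = 6.9e-05), with 2 of 3 T98G arrays and 0 U87MG arrays above the low-signal range and log2 -0.65 on its other probe set. The transcription factor genes IRF1 and IRF7 were 3.28-fold and at least 3.05-fold lower (8.66 ± 0.13 against 10.37 ± 0.22 for IRF1, 7.56 ± 0.14 against 9.17 ± 0.24 for IRF7). RIGI, another RNA sensor gene of the list, lies among the centromere-side neighbours and had log2 0.78 (adjusted p = 0.000912), short of 2-fold. It read 7.69, 7.32 and 7.31 in U87MG and 6.72, 6.53 and 6.71 in T98G, under the 95th percentile of tissue-restricted genes on every array.

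Among 18 partners of MLLT3 in the super elongation complex and around DOT1L, 2 were higher, 3 lower and 13 not called. AFF1, a scaffold of the complex, was 2.24-fold higher in U87MG on the brightest of 3 probe sets (log2 0.23 to 1.17, with 0.57 for their mean, short of 2-fold). EAF2 was higher at log2 1.11, at low signal in both lines, and without U87MG replicate 1 it had log2 0.96. ELL2, an elongation factor gene, read 8.39, 7.99 and 8.10 in U87MG and 9.91, 9.90 and 9.71 in T98G, and was 3.21-fold lower (limma adjusted p = 5.01e-06), with -0.42 on its other probe set. KMT2A, the histone methyltransferase gene that fuses to MLLT3 in leukaemia, was 2.56-fold lower (8.45 ± 0.16 against 9.80 ± 0.27), called on 4 of 6 probe sets, all 6 at log2 -1.38 to -0.79. HEXIM1, an inhibitor of the elongation kinase CDK9, was 2.11-fold lower. At log2 -0.93 it was short of 2-fold without U87MG replicate 3, and again on the mean of its probe sets. Without multiply matching probe sets HEXIM1 had no value, and neither had CDKN1A, CLNS1A and IRF7 of the lists above. DOT1L had 5.83 ± 0.11 in U87MG and 5.72 ± 0.13 in T98G (log2 0.12, 95% interval -0.13 to 0.37), at low signal in both. The lists share CDKN1A, and over all 6 of them 21 of 117 genes were called, 9 higher and 12 lower, where 13.6% of all genes were called either way.

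**Figure D4:**
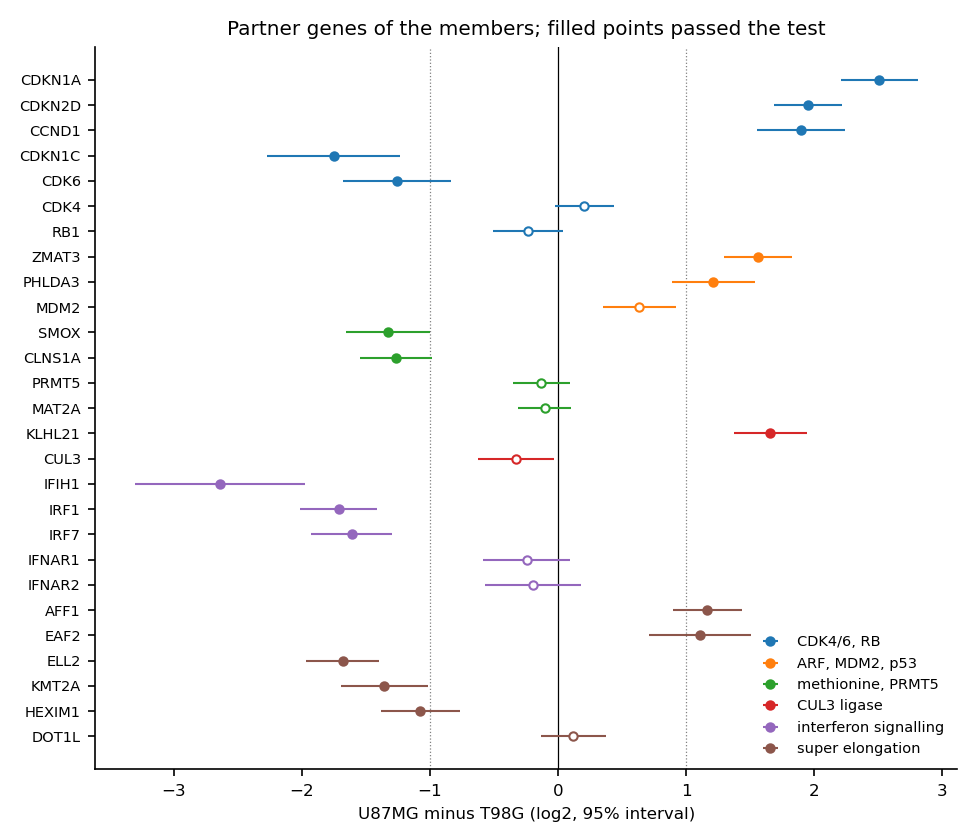
Log2 difference of U87MG minus T98G with its 95% interval (horizontal axis) for the named partner genes, coloured by list, with CDKN1A drawn once although it belongs to 2 lists. Filled points passed both the adjusted p of 0.05 and the 2-fold minimum (dotted lines), and CDKN1A at 2.51 and IFIH1 at -2.64 are the outermost.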

How the data were processed

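The arrays measured total RNA, labelled with biotin by a one-cycle protocol per the labels' protocols. The values the authors deposited are log2 intensities of probe sets, 2.90 to 14.9, and the submitters' processing notes name RMA and limma without versions or order. RMA subtracts background and equalises arrays, which compresses differences of dim transcripts and can hide a difference in total RNA. The number of arrays limits the precision, with a median residual SD of 0.15.

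Of 22277 probe sets, 62 controls were left out. Symbols of 19064 probe sets with 1 listed gene came from the platform annotation, and 19052 matched the RefSeq table of GRCh38.p14 by Entrez identifier. Sequences and gene order came from RefSeq. U87MG was compared with T98G, as the labels name them, by limma 3.58.1 in R 4.3.3 (lmFit, eBayes, two-sided, Benjamini-Hochberg), called at an adjusted p below 0.05 and a fold of 2 or more, over all probe sets and over 11963 genes on their brightest probe set. The fit was tested on simulated data.

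The members and lists were chosen with earlier results of these data known. Named genes were all members, the genes between and next to them, called neighbours (15 genes on each side) and up to 3 called genes per direction of each list, with 13 genes set by name where measured. RPS6, DENND4C, SNAPC3, HAUS6, RIGI and CYP2E1 were named after their values were seen. Alternatives were other thresholds, an intensity trend with robust variance, repeated centring or quantile normalization, a filter on dim probe sets, other choices of probe set, the replicate number as a block, other low-signal limits and leaving out each array.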

Additional observations from a re-analysis of the deposited data

How the results depend on the processing

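Among 162 recomputed member differences, the 13 sign changes fell on 5 uncalled probe sets. With no minimum fold, the calls numbered 8345 probe sets, 4942 genes, 15 neighbours and 57 partner genes, in place of 2723, 1624, 3 and 21. The low-signal counts depended on the limit. In U87MG the count of 0 became 13 with the bacterial limit and 1 with the 75th percentile. In T98G the count of 1 became 15 with the bacterial limit, 6 with the 75th percentile, 2 with the array median and 3 where 2 of 3 arrays sufficed, and it ran from 1 to 3 as each T98G array was left out. The neighbours called ran from 2 to 3 as each array was left out. Same-numbered arrays deviated together at r = 0.08 to 0.15, each best with its own number, which does not establish pairs. With the replicate number as a block the calls numbered 2729 probe sets, 1626 genes, 3 neighbours and 21 partner genes. Signal over background limits MLLT3, CDKN2A, CDKN2B and the interferon genes.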
